A study of Drosophila melanogaster with 2 samples.

Results

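The peaks described here are the regions of the X chromosome at which a GFP-tagged fly protein was found on chromatin. They were chosen by position: every peak of the authors' thresholded list on the dm6 build whose chromosome was X, which gave 715 of 4097 peaks, against 3382 on the autosomes (2L, 2R, 3L, 3R and 4). Binding was mapped by chromatin immunoprecipitation and sequencing (ChIP-seq), with an antibody against GFP, in whole Drosophila melanogaster embryos of both sexes, 0 to 24 h after laying. All samples formed 1 group of 2 biological replicates, and no second condition was compared. The flies of both replicates carried a MiMIC insertion that places an eGFP exon in an intron, so that the tagged protein should be made wherever its own gene is active. The strain and the fusion are called Side in the labels, whereas the insertion is said to target Sidpn, and the antibody field reads Side although the precipitation was made against GFP. Replicates are separate biological samples per the labels, each was called against the same single control, and chromatin came from pooled whole embryos, so more occupied cells and stronger binding per cell cannot be told apart. The sexes were pooled too, and the share of males, which carry a single X, is not given for either replicate.

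Fly males have 1 X chromosome and females a pair. In males the MSL complex, which holds the acetyltransferase mof and either of the noncoding RNAs roX1 and roX2, spreads along active X genes and raises their transcription. Sex itself is set by Sxl, which is switched on in females by X-linked genes such as sisA, sc, run and upd1, whose products count the X chromosomes. The thresholded list mixes promoters and introns on every arm, so the X peaks are described by signal, by annotation, by position around start sites, by spacing and by the genes they touch, beside the pooled autosomes and beside each of the 4 large autosomal arms. Signal is the value of the authors' peak caller, whose scale the labels and file records leave unstated. No test was made of any difference between X and the autosomes, since neighbouring peaks of an arm are not replicates. Intervals are 95% Wilson intervals and cover counting error only.

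The sequences at the summits of 6 of the 7 strongest X peaks show what such a region holds at a promoter and inside an intron (the sixth was left out, because its summit lies in or next to an untranslated region). They are plus-strand sequence of the RefSeq Release 6 genome, the same build as dm6, 5' to 3'. Ugalt (chrX:2703853-2704041), ph-p (chrX:2137186-2137485) and Atf3 (chrX:1275363-1275662) are promoter peaks of protein-coding genes, and the Ugalt sequence was shortened to leave out transcribed untranslated sequence. The lncRNA:CR44619 peak (chrX:12752209-12752508) lies 491 bp inside a noncoding RNA gene. CG32772 (chrX:4910214-4910513) and Tlk (chrX:3742049-3742348) are peaks inside introns. Capitals mark matches, on either strand, to any of 11 short motifs listed further on.
Ugalt: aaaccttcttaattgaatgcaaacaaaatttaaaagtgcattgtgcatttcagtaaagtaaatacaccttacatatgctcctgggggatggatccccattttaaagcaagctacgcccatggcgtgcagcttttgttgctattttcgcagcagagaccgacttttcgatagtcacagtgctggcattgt
ph-p: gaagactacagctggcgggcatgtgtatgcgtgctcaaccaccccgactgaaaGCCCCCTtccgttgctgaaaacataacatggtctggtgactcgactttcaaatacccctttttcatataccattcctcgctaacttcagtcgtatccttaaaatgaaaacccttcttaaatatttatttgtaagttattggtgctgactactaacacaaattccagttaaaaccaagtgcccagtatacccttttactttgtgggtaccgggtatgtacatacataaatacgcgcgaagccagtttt
CG32772: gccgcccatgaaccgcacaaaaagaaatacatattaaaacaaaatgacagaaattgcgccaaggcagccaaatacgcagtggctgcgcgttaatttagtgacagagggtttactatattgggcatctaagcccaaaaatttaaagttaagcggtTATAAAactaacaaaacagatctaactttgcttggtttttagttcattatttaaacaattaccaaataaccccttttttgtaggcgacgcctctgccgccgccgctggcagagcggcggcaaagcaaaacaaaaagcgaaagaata
lncRNA:CR44619: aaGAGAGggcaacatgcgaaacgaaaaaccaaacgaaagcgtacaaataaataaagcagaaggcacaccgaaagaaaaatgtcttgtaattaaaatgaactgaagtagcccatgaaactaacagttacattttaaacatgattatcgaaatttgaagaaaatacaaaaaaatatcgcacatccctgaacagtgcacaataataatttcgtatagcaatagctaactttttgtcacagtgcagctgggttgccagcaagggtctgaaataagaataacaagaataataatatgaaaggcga
Tlk: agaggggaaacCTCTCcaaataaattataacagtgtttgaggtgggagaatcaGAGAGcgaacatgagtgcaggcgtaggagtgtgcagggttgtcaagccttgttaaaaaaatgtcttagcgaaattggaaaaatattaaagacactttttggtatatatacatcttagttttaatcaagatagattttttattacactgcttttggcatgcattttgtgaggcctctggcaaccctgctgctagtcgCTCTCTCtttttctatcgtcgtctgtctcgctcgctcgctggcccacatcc
Atf3: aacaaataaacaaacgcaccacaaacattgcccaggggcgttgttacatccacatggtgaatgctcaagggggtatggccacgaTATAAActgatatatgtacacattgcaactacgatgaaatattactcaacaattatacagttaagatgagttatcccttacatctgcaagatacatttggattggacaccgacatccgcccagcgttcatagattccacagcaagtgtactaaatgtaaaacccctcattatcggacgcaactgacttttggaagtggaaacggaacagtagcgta
The Ugalt sequence held no match, which says only that those letters are not in this window. The ph-p capitals match the CTCF core AGGNGGC, those of CG32772 and Atf3 the TATA box TATAAA, and those of lncRNA:CR44619 and Tlk the GAGA factor motif GAGAG, of which Tlk had 4 matches, a pair of them overlapping. Over windows of 300 bp, the CTCF core was found at 11.0% of X peaks and 9.08% of autosomal peaks, the TATA box at 32.2% of X peaks and 36.8% of autosomal peaks, and GAGAG at 38.7% of X peaks and 39.5% of autosomal peaks. A match to such short letters is common and does not mark a bound site.

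The strongest X peak lay 39 bp upstream of Ugalt (FBgn0024994), which encodes a transporter of UDP-galactose, with a pooled signal of 1912 and signals of 1270 in replicate 1 and 688 in replicate 2. It had rank 2 in replicate 1 and rank 3 in replicate 2, near the top of the genome in both samples. The second lay 480 bp upstream of the nearest start site of ph-p (FBgn0004861), a Polycomb group gene, with 895 in replicate 1 and 649 in replicate 2. That start site is an internal one, and the summit lies inside the ph-p gene. Because ph-p has a near copy beside it, ph-d, reads of the pair can be hard to place; the ph-d promoter had a candidate peak of signal 65.8 that did not pass the threshold. Next came a peak inside CG32772 (FBgn0052772), 1261 bp into the gene, with 568 in replicate 1 and 464 in replicate 2. Tlk, the gene of the Tousled-like kinase, carried a peak 2301 bp inside, with 479 in replicate 1 and 424 in replicate 2. lncRNA:CR44619 had a pair of peaks, 491 bp inside and 470 bp upstream of its start site, of pooled signal 913 and 766. MFS10, a transporter gene of the major facilitator family, followed with 876, and Atf3, a bZIP factor gene, with 834.

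Strong intron peaks came next to strong promoter peaks down the list. Introns held peaks of 747 at CG3726, 744 at Raf, the kinase of the MAP kinase cascade, 730 at NFAT, a transcription factor gene, 656 at Zw, which encodes glucose-6-phosphate dehydrogenase, 620 at LPCAT, an acyltransferase gene, 543 at norpA, the phospholipase C of phototransduction, 438 at CG34417, 429 at mnb, a protein kinase gene, and 429 at Hr4, a nuclear receptor gene. The Zw summit also lies 849 bp upstream of the antisense gene asRNA:CR44512. Promoters held 675 at a summit within 500 bp of both bves and Stt3A, a subunit gene of the oligosaccharyltransferase, 604 at CG17896, 602 at dnc, the cAMP phosphodiesterase gene, 569 at moody, a receptor gene of the blood-brain barrier, 564 at CG3009, 553 at TRAM, 526 at CBP, 515 and 446 at Ptpmeg2, a phosphatase gene, 449 at elav, a neuronal RNA-binding protein gene, and 445 at CG4586. The gene with the symbol CBP (FBgn0026144) is not nej, the CBP acetyltransferase gene named further on. A second Raf peak of 441 was in its 5' UTR, and a peak of 573 lay between genes, 577 bp upstream of lncRNA:CR42794. Of the 30 strongest X peaks, 17 were promoter summits, 11 lay in introns, 1 in a 5' UTR and 1 between genes. All 30 were also among the 4097 highest peaks of each replicate's own list, and in 29 of 30 the signal was higher in replicate 1 than in replicate 2.

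**Figure D1:**
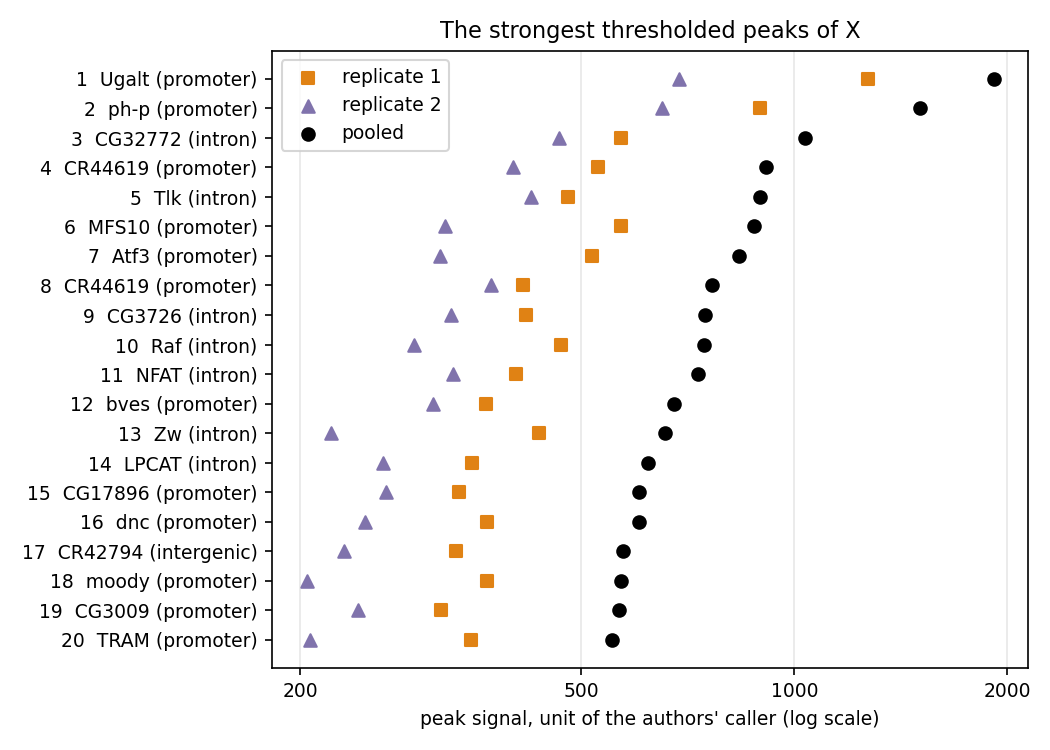
Peak signal, in the unit of the authors' caller on a log scale, of the 20 strongest thresholded X peaks, in rank order from the top, with the pooled list as circles, replicate 1 as squares and replicate 2 as triangles. The signal of replicate 1 is higher than that of replicate 2 in all 20, and Ugalt reaches 1912 in the pooled list.

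By list share and by peaks per Mb of arm, X did not differ from the autosomes beyond the difference between replicates. Thresholded peaks on X made up 17.5% of the list (16.3 to 18.6%), and X held 17.7% of the 30000 pooled candidates. Of the X candidates 16.6% overlapped a thresholded peak, against 17.1% of autosomal candidates and 17.1% of all, and 13.5% of X candidates were themselves in the list, against 13.7% of autosomal candidates and 13.7% of all. There were 30.4 peaks per Mb on X and 30.7 per Mb on the autosomes, and the large autosomal arms ran between 29.1 and 32.4. Taken from each replicate's own list, the X share was 18.1% in replicate 1 and 17.0% in replicate 2, so the order of X and autosomes turned round between the samples. The X peaks merged into 696 regions covering 244 kb.

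Signal was also much alike. The median signal was 127 on X and 123 on the autosomes, and the middle of the distribution ran from 98.4 to 193 on X and from 98.0 to 182 on the autosomes. On the log2 scale the mean was 7.19 ± 0.74 over 715 X peaks and 7.16 ± 0.72 over 3382 autosomal peaks (SD over peaks). Medians of the large autosomal arms ran from 121 to 126, so X lay just above all 4. At the very top, X held 21 of the 100 strongest pooled peaks, 23 of the 100 strongest in replicate 1 and 17 of the 100 strongest in replicate 2, and the intervals of these shares all include 17.5%. The lowest members were at pdgy (81.8), Sec61gamma (81.7) and lncRNA:CR43298 (81.6), and the highest X candidates left out were at Pde9, NFAT and CG12540 (81.3 each).

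**Figure D2:**
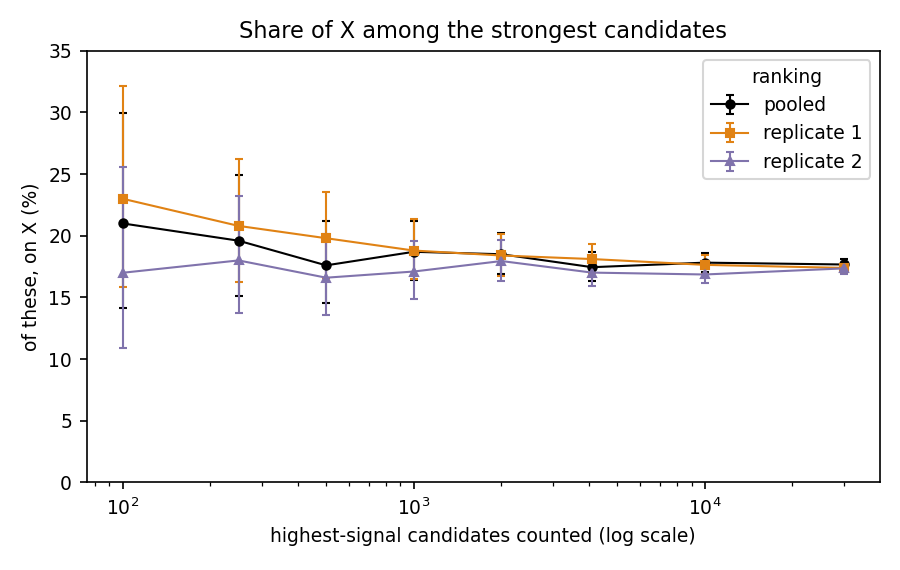
Share of peaks on X, in percent, among the highest-signal candidates of the pooled list and of each replicate, against how many were counted (log scale), with 95% Wilson intervals. The lines start between 17.0 and 23.0% at 100 peaks and meet near 17.5%.

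In their annotation the X peaks lay outside the range of the large autosomal arms, with fewer promoters and more introns. Summits no farther than 500 bp from an annotated start site were called promoter summits. Promoter summits were 355 of 715 on X (49.7%, 46.0 to 53.3%) and 1956 of 3382 on the autosomes (57.8%), and the large autosomal arms ran from 55.2% on 3L to 60.0% on 3R. Intron summits were 291 on X (40.7%, 37.2 to 44.3%) and 954 on the autosomes (28.2%), with 26.3% on 2L and 29.9% on 3R as the ends of the arms' range. Intergenic summits were 48 on X (6.71%, 5.10 to 8.79%) and 390 on the autosomes (11.5%), with arms from 7.62 to 15.1%. All 3 X shares were past the end of the arms' range, though for intergenic summits 3R lay inside the X interval. Coding exons held 1 X summit and 12 autosomal summits, 3' UTRs 12 X summits and 21 autosomal summits.

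**Figure D3:**
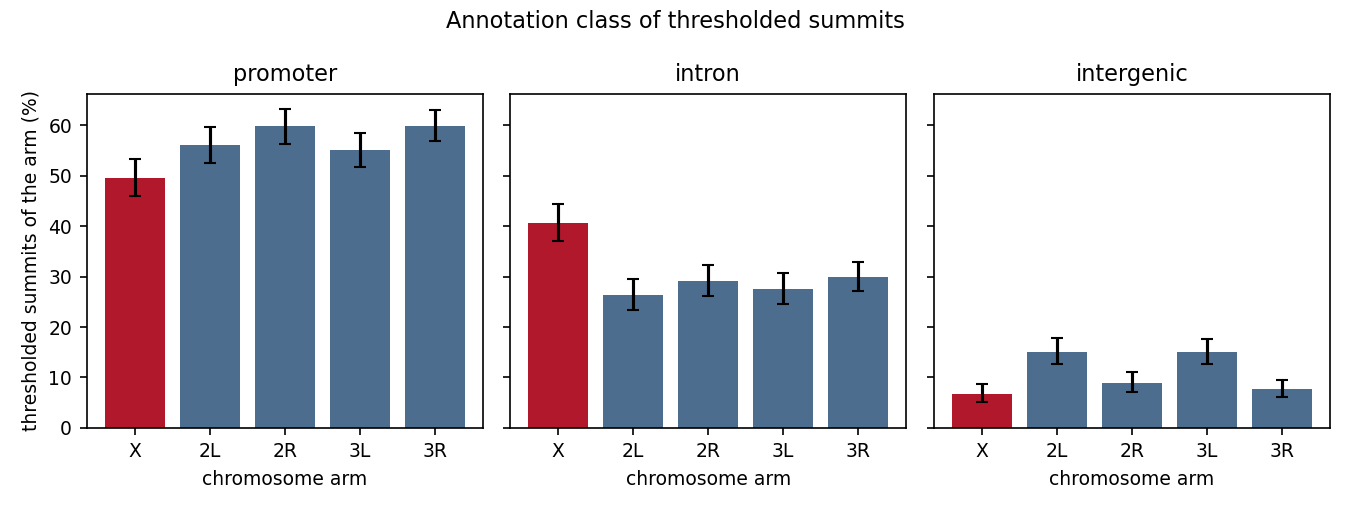
Share of thresholded summits, in percent of the arm's summits, in promoters, introns and between genes, for X (red) and the 4 large autosomal arms (blue), with 95% Wilson intervals. X has the lowest promoter bar (49.7%) and the highest intron bar (40.7%).

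Both replicates gave the same order for introns. In the 4097 highest peaks of replicate 1, 39.5% of X summits and 26.9% of autosomal summits were in introns, and in those of replicate 2 it was 40.7% of X summits and 30.1% of autosomal summits. Promoters held 50.5% on X and 59.0% on the autosomes in replicate 1, and 50.6% and 56.5% in replicate 2. In replicate 2 the promoter share of 3L, 52.9%, lay inside the X interval (46.9 to 54.3%). Intron sequence itself made up 43.4% of X, 38.7% of the autosomes and 43.2% of 3R, and its part in the intron share of summits was not tested. Per Mb of intron there were 28.5 X peaks and 22.4 autosomal peaks, with arms from 21.2 to 25.3. Promoter windows made up 12.4% of X (12.7 to 14.7% over the large arms) and intergenic sequence 22.8% (24.0 to 32.5%). Per Mb of promoter window there were 122 X peaks and 130 autosomal peaks, with arms from 124 to 139. Per Mb of intergenic sequence it was 8.93 on X and 12.4 on the autosomes, with arms from 9.48 to 17.0. The part of these sequence shares was not tested either. Candidates that did not overlap the thresholded list were in introns at 41.8% on X and 36.8% on the autosomes, and in promoters at 30.5% on X and 30.5% on the autosomes. Between genes lay 10.8% of them on X and 16.3% on the autosomes. At promoters and in introns these candidates differed less between X and the autosomes than the thresholded peaks did, whereas between genes they did not differ less. Of the intron candidates 15.6% on X overlapped a thresholded peak, against 13.6% on the autosomes, and of the promoter candidates 25.5% on X, against 28.5% on the autosomes. On 2R the intron value was 15.6%, as on X, whereas the promoter values of the large arms, 27.7 to 30.7%, were all above that of X.

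The strength of intron peaks was close to that of promoter peaks. The median signal was 127 at X promoters, 132 in X introns and 112 between genes, and on the autosomes 123 at promoters, 124 in introns and 120 between genes. Intergenic X peaks were the least repeatable of these 3 classes, as 28 of 48 (58.3%) were among the top peaks of both replicates. For X introns it was 204 of 291 (70.1%) and for X promoters 270 of 355 (76.1%). The intergenic share was 70.5% on the autosomes and varied from 65.2% on 2L to 78.7% on 3R, and the X value rests on only 48 peaks.

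Most genes with an intron peak had a single one, and a few had many. Of the X intron summits, 278 lay inside 161 protein-coding genes, 1.73 per gene, against 943 in 565 genes on the autosomes, 1.67 per gene. A single intron summit was in 105 of the 161 X genes and in 362 of the 565 autosomal genes, and genes with 3 or more held 39.2% of the summits on X and 37.4% on the autosomes. Genes with 5 or more such summits numbered 8 on X and held 20.9% of the 278, against 14.0% on the autosomes and 10.1 to 22.9% over the large arms. Counting summits of every class, CHES-1-like, a forkhead factor gene of 27.0 kb, had 13, 10 of them in introns and 10 among the top of both replicates. Raf, over 48.4 kb, had 12, and its strongest was 744. kirre, an adhesion gene of the immunoglobulin family spanning 394 kb, had 11, all 11 among the top of both replicates. Tlk had 10, of signal 89.9 to 893, and Hr4 had 9. CG1677 had 11 within 125 kb, but CBP, brk and other genes lie inside it and share them. CHES-1-like, kirre and CG1677 were named after their counts were seen. Counting only 1 summit per 5 kb, a choice also made after the values were seen, left 502 X and 2423 autosomal summits and an intron share 13.1 percentage points higher on X. Long genes keep several summits under that rule, and no count was made without the genes named here.

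At promoters, X summits sat farther upstream. With positions counted from the nearest start site and negative upstream, the median summit was at -87 bp on X (first and last quartiles -205 and 3 bp) and at -56 bp on the autosomes (-138 and 8 bp), where the medians of the large arms ran from -59 to -53 bp. On X 154 of 355 promoter summits (43.4%, 38.3 to 48.6%) fell within 100 bp of a start site, against 1100 of 1956 (56.2%) on the autosomes and 55.5 to 56.8% over the large arms. Summits over 200 bp upstream were 93 on X (26.2%) and 294 on the autosomes (15.0%). Replicate 1 gave 46.4% within 100 bp on X and 60.7% on the autosomes, and replicate 2 gave 37.1% on X and 49.2% on the autosomes. Among the other candidates the shares were 40.3% on X and 43.4% on the autosomes, closer together than in the thresholded list.

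**Figure D4:**
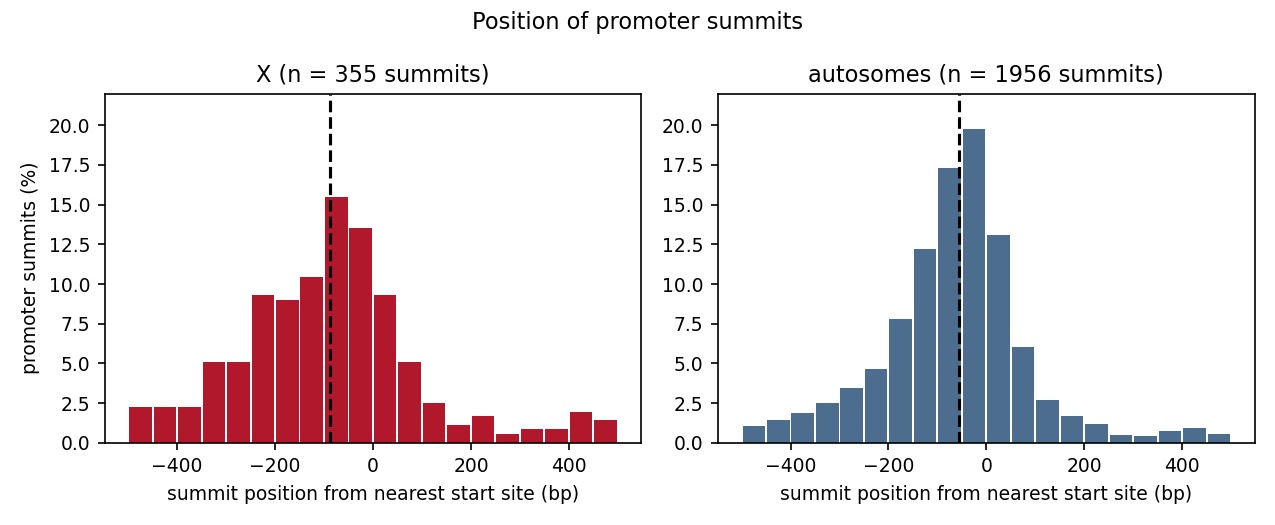
Distance of promoter summits from the nearest start site, in bp, negative upstream, as percent of promoter summits in steps of 50 bp, for X (355 summits) and the autosomes (1956 summits), with the median as a dashed line. The X summits are spread wider on the upstream side, with a median of -87 bp against -56 bp.

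The strongest promoter peaks were the farthest from start sites. Of the 88 promoter summits among the 179 strongest X peaks, 25 (28.4%) were within 100 bp and the median was at -142.5 bp, while of the 86 among the 178 weakest, 52 (60.5%) were within 100 bp and the median was at -59.5 bp. The autosomes showed the same order, with 43.4% in their strongest group and 62.2% in their weakest. Of the 17 promoter summits among the 30 strongest X peaks, 14 lay over 100 bp upstream, among them ph-p (480 bp), CG17896 (485 bp), CG4586 (423 bp), CBP (287 bp), elav (278 bp) and dnc (266 bp), and Ugalt at 39 bp and TRAM at 88 bp were closer. Upstream here is relative to the nearest start site, which can be internal. The summits at ph-p, dnc, Ptpmeg2, MFS10, bves and TRAM lay inside those genes themselves. Start sites of protein-coding genes on both strands lay within 500 bp of 85 of 355 X promoter summits (23.9%, 19.8 to 28.6%) and of 633 of 1956 autosomal ones (32.4%, arms 27.7 to 37.1%). With such shared promoters left out, 39.2% of 250 X summits and 50.4% of 1230 autosomal summits with start sites of protein-coding genes on 1 strand were within 100 bp.

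Counted by gene, 389 of 2196 protein-coding genes on X had a thresholded promoter summit (17.7%, 16.2 to 19.4%), against 2345 of 11749 on the autosomes (20.0%) and 19.6% of all. Of the X genes with a candidate there, 29.8% had a thresholded one, against 36.4% on the autosomes and 35.3 to 38.9% over the large arms. A candidate lay at a promoter of 1307 of the 2196 X genes and of 6450 of the 11749 autosomal genes. The median signal of the thresholded promoter summits was 129 for the X genes and 130 for the autosomal genes. These values are the background for the gene lists.

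Of the 8 genes that count or compensate the X, 2 had a thresholded promoter summit. Sxl, the switch gene of sex determination, had a summit 380 bp downstream of a start site, with a pooled signal of 132, 70.5 in replicate 1 and 63.8 in replicate 2. roX1, the MSL complex RNA, had 101, with 34.1 in replicate 1 and 67.2 in replicate 2, ranks 6408 and 1636, so the peak was among the top 4097 of replicate 2 only. roX2, the other such RNA, had a candidate of 60.1 below the threshold, and a thresholded peak of 163 at nod, a kinesin-like gene, ended 35 bp from it. mof had a candidate of 51.9 and upd1, a ligand of the JAK/STAT pathway that helps count the X, one of 31.0. sisA (19.4) and run (21.4) had weak candidates, sc had none, and at upd1, sisA and run the candidates of replicate 2 held no match. roX2, mof, upd1, sisA, run and sc were thus all below the threshold, and 2 of 8 is near the background of 17.7% for so few genes. That background is of protein-coding genes, whereas roX1 and roX2 are noncoding. Sxl was the only protein-coding gene of the list with a thresholded promoter summit.

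Chromatin regulators had 5 of 10 (50%), with a median signal of 194, and 9 had a candidate. The background was 17.7% of X genes and 29.8% of X genes with a candidate. After ph-p came Bap60, a subunit gene of the Brahma remodelling complex, with a pooled signal of 254 (175 in replicate 1, 77.9 in replicate 2), fs(1)h, a bromodomain gene, with 194 (129 in replicate 1, 69.0 in replicate 2), nej, the CBP acetyltransferase gene, with 140, and trr, a histone H3 methyltransferase gene, with 100. Taf9, a subunit gene of TFIID, and z, which encodes the Zeste factor, had candidates of 54.3 and 47.5, and Smr, a corepressor gene, had no promoter candidate but 3 thresholded summits elsewhere in the gene.

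Patterning and signalling genes had 2 of 16. sgg, the GSK3 kinase gene of Wnt signalling, had 426 (242 in replicate 1, 177 in replicate 2), and brk, the repressor gene of the Dpp pathway, had 121. disco (75.02), btd (70.2) and oc (63.6), all transcription factor genes, had candidates below the threshold. Of the 16 genes, 14 had a candidate. The share of 12.5% is close to the background of 17.7% of X genes. Against the 29.8% of X genes with a candidate, 2 of 14 is lower, and this was not tested.

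Nervous system genes had 5 of 15 (33.3%), and 9 had a candidate, beside 17.7% of X genes and 29.8% of X genes with a candidate. elav had 449, with 201 in replicate 1 and 241 in replicate 2, the exception among the 30 strongest in being higher in replicate 2. dlg1, a scaffold gene of septate junctions and synapses, had 142, Fas2, an adhesion gene, 128, N, the Notch receptor gene, 117, and Nrg, the neuroglian gene, 96.6. Of the proneural genes ac, sc, l(1)sc and ase, none had a candidate at a promoter, beside 1307 of all 2196 X genes.

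Cell cycle genes had 3 of 9, all of low signal: fzr, an activator gene of the anaphase-promoting complex, 108, Klp10A, a kinesin gene, 92.6, and rux, a gene for an inhibitor of cyclin-dependent kinase, 86.1. All 9 had a candidate, and 3 of 9 (33.3%) is close to the 29.8% of X genes with a candidate. The highest of the others was Klp3A at 76.4, followed by mud at 60.6 and CycD at 60.4. Growth and housekeeping genes had 6 of 13 (46.2%), and all 13 had a candidate, beside 29.8% of X genes with a candidate. Gapdh2 and Hex-A, both of glycolysis, had 413 and 411, and replicate 2 exceeded replicate 1 at each (260 against 152 at Gapdh2, and 243 against 170 at Hex-A). The others were sta, a ribosomal protein gene, with 229, Act5C, cytoplasmic actin, with 133, Zw with 97.3 and ras, which encodes IMP dehydrogenase, with 93.1. Myc (73.2), Polr2A (64.2) and Hsc70-3 (51.2) had candidates below the threshold.

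The lists at the ends of the range were the ribosomal protein genes and the genes of adult and larval products. All 14 cytosolic ribosomal protein genes matched by name on X had a thresholded promoter summit, with signals of 96.2 to 376 and a median of 198, and all 14 summits were within 100 bp of the start site. On the autosomes 70 of 78 genes matched by the same name pattern had a candidate and 56 a thresholded summit, with a median of 225. On 3L it was 13 of 14. The pattern reads only the start of the symbol and does not separate main copies from related or duplicate genes. The X and autosomal sets may therefore be unlike. RpL22 had 376 (204 in replicate 1, 171 in replicate 2), RpL17 316 (192 in replicate 1, 129 in replicate 2), RpS28b 314 (209 in replicate 1, 106 in replicate 2), RpS5a 244, RpL36 242 and RpS15Aa 217. RpS14a and RpS14b are adjacent near copies, so their 119 and 179 may share reads. Yolk protein, chorion, glue and pigment genes (16 genes, among them Yp1, Cp36 and w) had no candidate at any promoter. Of all 2196 protein-coding genes on X, 1307 had one. The lists are small, and no test was made of any of them.

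**Figure D5:**
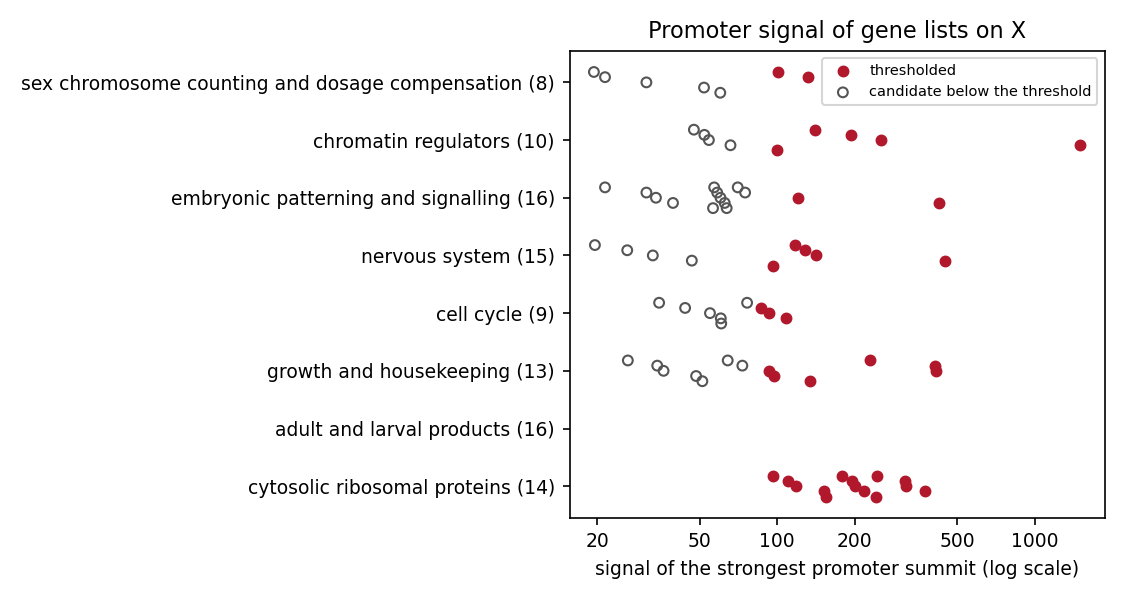
Pooled signal, on a log scale, of the strongest promoter summit of each gene, by gene list (number of genes on X in brackets), filled where thresholded and open where a candidate fell below the threshold. Genes with no candidate have no point, which leaves the row of adult and larval products empty, while all 14 ribosomal protein genes are filled.

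Neighbouring X summits were about as far apart at the median as those of autosomes, and gaps of over 100 kb made up a larger share on X. The median distance between neighbours was 10974 bp on X and 11127 bp on the autosomes, with 9754 to 12256 bp over the large arms. The mean was 31.7 kb on X and 27.8 kb on the autosomes, with 24159.9 to 29546.5 bp over the large arms. In replicate 1 the mean was 30577.5 bp on X and 28294.5 bp on the autosomes. In replicate 2 it was 32560 bp on X and 27500.9 bp on the autosomes, so it was longer on X in both. Gaps of over 100 kb were 60 of 714 on X (8.40%) and 6.28% on the autosomes (4.73 to 7.37% over the large arms). They took up 47.4% of the span of X and 38.3% of that of the autosomes (30.7 to 44.4%). The X value includes a single gap of 1202 kb, described below, and was not computed without it. In replicate 1 these gaps took up 43.7% of the span of X and 43.6% of that of 2L. In replicate 1 such gaps were 7.15% on X and 6.12% on the autosomes, with 7.30% on 2L, and in replicate 2 they were 9.05% on X and 5.89% on the autosomes. At the short end, 128 X summits (17.9%, 15.3 to 20.9%) had a neighbour within 1 kb, against 15.9% on the autosomes (14.3 to 17.1%).

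The longest gap on X, 1202 kb, lay between lncRNA:flam, the piRNA cluster gene flamenco, and mir-2491 near the centromere, and held 38 protein-coding genes and 37 candidates of signal up to 74.2. The longest autosomal gap in the thresholded list was 619926 bp. In replicate 1's own list 2R had a gap of 1241123 bp and the longest on X was 1202002 bp, and in that of replicate 2 the longest was 1205789 bp on X and 637361 bp on the autosomes, so the order of the longest gaps turned between the samples. The next gaps on X ran from lncRNA:CR43838 to Stt3A (293 kb) and from lncRNA:CR32660 to Ten-a, a teneurin gene (281 kb). The densest 50 kb held 15 summits at CG2865, Raf, lncRNA:CR34052 and lncRNA:CR33218, with signals from 84.7 to 744, and the next held 13 at CHES-1-like and lncRNA:CR43287, from 82.3 to 342. A further window held 11 from Usp30 and CG16721 through lncRNA:CR45668 and Act5C to CG12236 and CG3726. Arms 2L and 2R reached 16 and 15 summits in 50 kb, so the crowding at Raf was not beyond what other arms had. By Mb, the bins numbered 3 and 7 from the start of the arm held the most, 55 and 53 summits, and bin 23, the last full one, held 2.

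The 520 X peaks among the top of both replicates were 72.7% of the 715 (69.3 to 75.9%), against 72.4% on the autosomes. Among the top of replicate 1 were 89.7% of X peaks, against 87.3% on the autosomes and 86.4 to 89.0% over the large arms. Among the top of replicate 2 were 81.8% of X peaks, against 84.1% on the autosomes and 83.2 to 85.2% over the large arms. The median log2 ratio of replicate 1 to replicate 2 was 0.32 over 714 X peaks with a value in both and 0.21 over 3364 autosomal peaks, with 0.20 to 0.23 over the large arms. In introns it was 0.30 on X and 0.13 on the autosomes, at promoters 0.31 on X and 0.23 on the autosomes. For the other candidates it was 0.28 on X and 0.25 on the autosomes. X thus stood outside the range of the large arms in this ratio, which rests on 2 samples.

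Motif content and base composition were close to those of autosomal peaks, though several motif shares on X lay past the range of the large arms. GC content within 100 bp of the summit averaged 39.0 ± 6.9% on X and 39.2 ± 7.2% on the autosomes (SD over peaks), against 44.0% at the other X candidates and 44.4% at the other autosomal ones. The 11 motifs, searched on both strands within 100 bp, were the 3 named above, the DRE (TATCGATA), motif 1 (GGTCACAC), the GA repeat (GAGAGAGA, which overlaps GAGAG), the CA repeat (CACACACA), motif 7 (CATCNCTA), the Zelda motif, the HES site and the E-box. GAGAG was at 25.2% of X and 27.7% of autosomal summits, and the TATA box at 24.5% of X and 26.9% of autosomal summits. The HES site, CACGCG, was at 28 of 715 X summits (3.92%) and 169 of 3382 autosomal summits, and at 5.97% of the other X candidates. The E-box of bHLH factors, with the letters CACGTG, was at 2.24% of X and 2.81% of autosomal summits. Motif 1 was at 2.24% of X and 3.49% of autosomal summits, motif 7 at 4.90% of X and 5.35% of autosomal summits, and the CTCF core at 7.13% of X and 6.00% of autosomal summits. The Zelda motif, whose letters are CAGGTAG, was at 9 X summits (1.26%) and at 0.98% of autosomal summits, and the GA repeat at 2.66% of X and 2.72% of autosomal summits. The CA repeat was at 5.87% of X summits and 4.94% of autosomal ones, and at 8.96% of the other X candidates and 5.63% of the other autosomal candidates, a lower share at thresholded X peaks than at the rest of the X candidates. The DRE was at 5.31% of X and 4.46% of autosomal summits, and at thresholded promoter summits alone it was at 9.86% on X and 7.57% on the autosomes. At start sites of all protein-coding genes, with a window set separately, it was at 9.44% on X and 5.83% on the autosomes.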

How the data were processed

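Per the file headers and records, the authors deposited narrow peak lists from ChIP-seq of 2 biological replicates, a candidate list for each replicate and for both pooled, all against 1 control, and a list past an irreproducible discovery rate threshold. The aligner, the peak caller and the value of the threshold are not stated in them, and depth is unknown. The only values used were the signal the authors deposited for each peak (a score of their caller, used to rank and describe peaks) and positions on dm6, 1-based. The thresholded peaks were the 4097 highest of the pooled list. Each replicate was also read from the 4097 highest peaks of its own list. Summits were classed with Ensembl release 115 as promoter (within 500 bp of a start site), 5' UTR, coding exon, 3' UTR, noncoding exon, intron or intergenic, in that order. Python 3.11.15, pandas 2.3.3, numpy 2.4.6 and scipy 1.17.1 were used, and the functions were tested on simulated data. No test between X and autosomes was made. The peaks, the 8 gene lists and the 11 motifs were chosen with earlier results of these data known. Named genes are those of the 30 strongest X peaks, up to 6 thresholded and 3 other genes per list, the genes at the 3 lowest members and the 3 highest candidates left out, at the 3 longest gaps and in the 3 densest windows of 50 kb. nod, ph-d, asRNA:CR44512, CHES-1-like, kirre and CG1677 as counted genes, RpS14a and RpS14b were named after their values were seen, and where more than 3 other genes of a list are named, so were those beyond 3.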

Additional observations from a re-analysis of the deposited data

How the results depend on the processing

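Of 71 values recomputed under alternatives, 43 stayed within the spread used (the SD between the 2 replicate lists or, for the share at the top of both replicates, its 95% interval), 21 moved by more and 7 changed direction, and for none was the cause tested. The lower promoter and intergenic shares and the higher intron share on X kept their direction in every alternative run. X minus autosomes ran from -8.42 to -5.82 percentage points for promoters, from 10.6 to 12.6 for introns and from -5.76 to -5.17 for intergenic summits when 1 replicate was left out. With a promoter window of 200 bp these were -13.6, 15.7 and -3.17, and with 1000 bp the intron and intergenic values were 10.9 and -3.97. The 1000 strongest peaks gave a promoter difference of -11.3, an intron difference of 19.2 and an intergenic difference of -9.09, a share on X of 18.7%, a median spacing on X 0.658 times that of the autosomes, and 3.30 percentage points more summits with a neighbour within 1 kb. That last difference was 3.32 with overlapping peaks merged and 0.765 on dm3, and ran from 1.49 to 1.98 with 1 replicate left out, when the spacing ratio ran from 0.949 to 0.979. Directions that turned were those of small differences. The share of candidates past the threshold (X minus autosomes) was 0.18 percentage points for the 1000 strongest peaks and ran from -0.96 to 0.69 with 1 replicate left out. Density on X over autosomes was 1.08 for the 1000 strongest and ran from 0.961 to 1.04. The median log2 signal difference was -0.038 for the 1000 strongest, 0.015 with 1 summit per 5 kb, and ran from 0.0086 to 0.052. The GC difference was 1.54 percentage points for the 1000 strongest, -1.09 within 50 bp, and ran from -0.172 to 0.092. No paired analysis was possible because the samples form 1 group. Depth is unknown, so weak X peaks such as those found in 1 replicate could not be judged against it. Counting 1 summit per 5 kb was chosen after seeing the data.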

Other observations

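DRE sites were spread unevenly over the signal of X peaks. The DRE was within 100 bp of 11.8% of the 178 weakest X summits, against 3.35% of the 179 strongest. In the groups of 179 summits between them, from stronger to weaker, it was at 3.91% and 2.23%. The higher share was thus confined to the weakest group, with no steady rise as signal fell. X peaks with a DRE had a median signal of 95.5 and those without one of 128, and in each replicate's own list the X medians were lower with a DRE too (58.9 with and 70.4 without in replicate 1, 50.3 with and 62.3 without in replicate 2). On the pooled autosomes the medians were 131 with and 122 without, but the large arms were not alike. They were 111 with and 127 without on 2L, 118 with and 121 without on 2R, 121 with and 124 without on 3L, and 136 with and 120 without on 3R. In the list of replicate 2 the pooled autosomes had 57.2 with and 59.8 without, the same order as on X. Of the X promoter summits, 35 of 355 held a DRE, and of the other X summits 3 of 360 did. The pattern was noticed in these data and was not tested.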
